A study of Mus musculus with 6 samples.

Results

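The expression of 10 genes of G protein signalling was followed in adrenal glands of 2 mouse strains, the hypertensive BPH ("Blood Pressure High") and the hypotensive BPL ("Blood Pressure Low"). They are the RGS protein genes Rgs2, Rgs4 and Rgs16, the G protein subunit genes Gnb1, Gnao1, Gnas and Gnaq, the protein kinase A genes Prkaca and Prkar1a, and the adrenergic receptor gene Adra2c. Every probe set of the Affymetrix MG_U74Av2 array that the platform annotation assigns to 1 gene, that gene being 1 of these 10, was taken, which gave 19 probe sets of 12488. A probe set is a group of short oligonucleotides that are read together as 1 value. RNA of BPH adrenals was measured on 3 arrays and RNA of BPL adrenals on 3 arrays, with no treatment named for either strain. Age, sex and the number of animals behind each array are not given in the sources used here, so p-values measure the spread between these arrays, which may be technical.

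A receptor that binds its ligand loads a G protein alpha subunit with GTP and frees it from the beta and gamma subunits. The alpha subunit of Gs switches on adenylyl cyclase, whose product cyclic AMP releases the catalytic subunits of protein kinase A from their regulatory subunits, while the alpha subunit of Gq switches on phospholipase C. RGS proteins end the signal by speeding up GTP hydrolysis on the alpha subunit. In the adrenal gland, corticotropin drives steroid synthesis through Gs and cyclic AMP, angiotensin II drives aldosterone synthesis through Gq, and receptors that couple to Gi and Go restrain catecholamine release from chromaffin cells.

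Markers of the labelled tissue were present on all arrays, and other tissues were present too. The summed intensity of 7 adrenal cortex markers lay between 594344 and 670122 on BPH arrays and between 553351 and 640277 on BPL arrays. For chromaffin cells, 7 of 9 listed markers had probe sets, and their sum was 251222 to 288064 on BPH arrays and 136750 to 253046 on BPL arrays. The 7 brown fat markers summed to 42866 to 72101 on BPH arrays and 112272 to 327372 on BPL arrays, with the highest sum on BPL 2. The 6 general adipocyte markers with probe sets overlapped between the strains, with sums of 130352 to 155876 on BPH arrays and 114683 to 205125 on BPL arrays. The 10 skeletal muscle markers summed to 193567 on BPH 1 and 29468 and 14049 on BPH 2 and BPH 3, against 193416 on BPL 2 and 15834 and 16806 on BPL 1 and BPL 3. No marker of these lists was at 0 on any array or under the floor of 201.3 on all of them. BPH 1 and BPH 2 were washed on fluidics station 2, and BPH 3 with all 3 BPL arrays on station 1.

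Of the 10 genes, Rgs2 was higher in BPH adrenals, and it was the single member that passed the test. Gnb1 was brighter on every BPH array than on any BPL array at all 3 of its probe sets, but missed the threshold. Gnao1 and Gnaq had lower values in BPH at the probe sets where the strains did not overlap, and missed it as well. For Rgs16, Gnas, Prkaca, Prkar1a and Adra2c the arrays of the strains overlapped. Of the 19 probe sets, 14 passed the filter on low signal, which required a mean log2 intensity at or above that of an intensity of 668.1, and these cover 9 of the 10 genes. Among the 14, 1 was called higher and 0 lower in BPH at an adjusted p under 0.05 (limma, Benjamini-Hochberg over all 7293 tested probe sets), where the background over all tested probe sets was 1.56% called higher and 0.96% called lower, 2.52% together. At an unadjusted p under 0.05 there were 4 higher and 1 lower, beside 10.8% and 8.5% of all tested probe sets. Over the 14 the median log2 difference, BPH minus BPL, was -0.09, against 0.03 for all 7293.

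Rgs2 encodes an RGS protein that acts preferentially on Gq. Mice that lack it are known for high blood pressure, and its transcript behaves as an early response gene in several cell types. Its single probe set, 97844_at, had an intensity of 27121, 33451 and 29282 on BPH arrays 1 to 3, against 13117, 9883 and 13610 on BPL arrays 1 to 3. The strains did not overlap, and the lowest BPH array was 1.99 times the highest BPL array. Within a strain the highest array was 1.23 times the lowest in BPH and 1.38 times in BPL. The means were 29951 ± 3218 in BPH and 12204 ± 2025 in BPL (SD, n = 3 each). The log2 difference was 1.30 (SE 0.15, 95% confidence interval 0.96 to 1.65, limma adjusted p = 0.00401), a fold of 2.47. By p Rgs2 had rank 26 among the tested probe sets, and 1.37% of them had a larger difference in either direction.

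**Figure D1:**
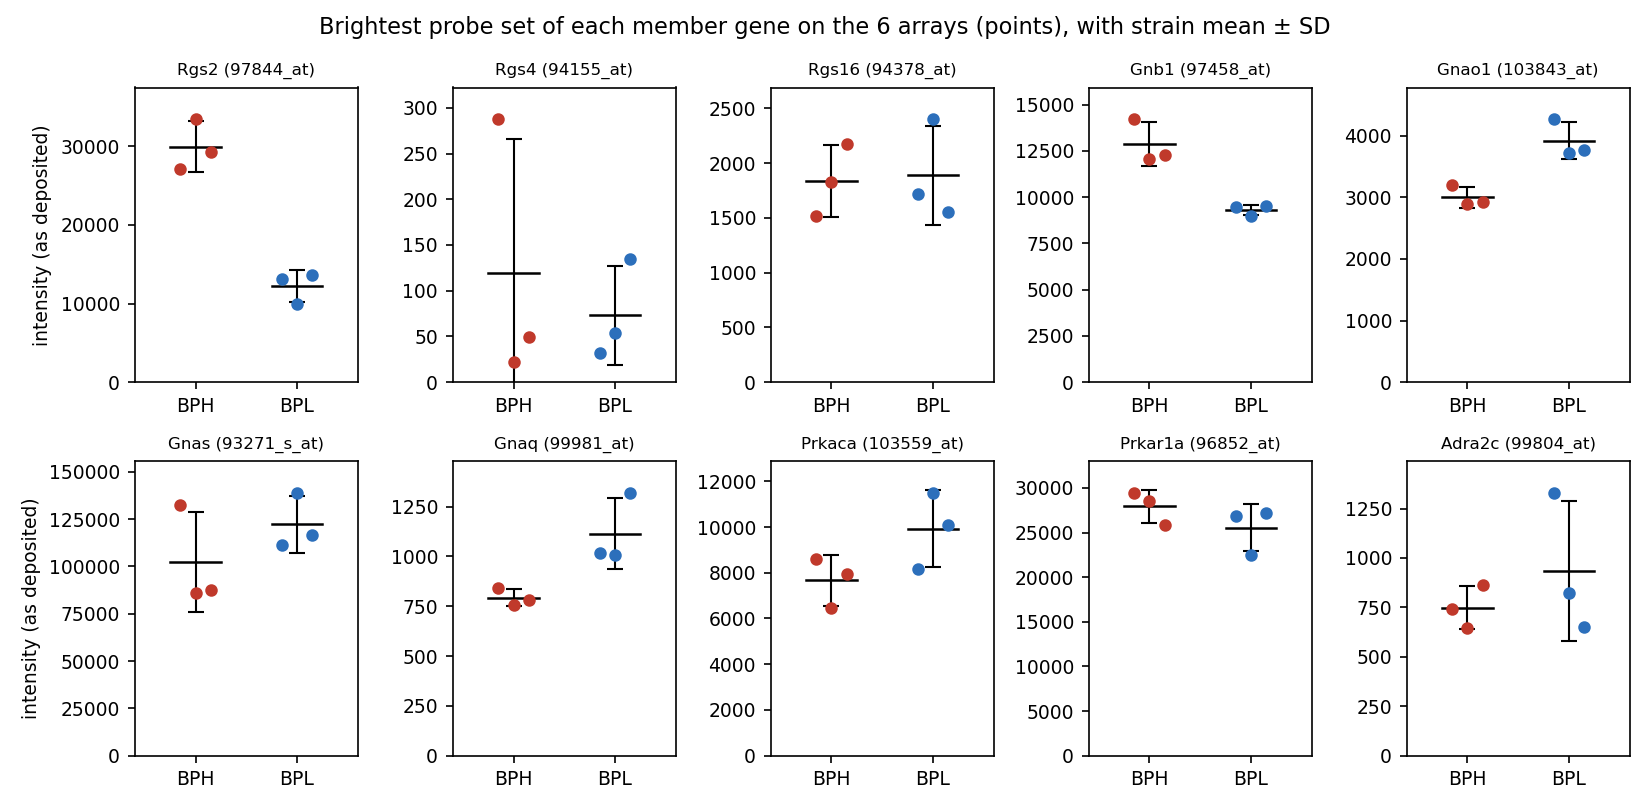
Intensity as deposited (vertical axes, linear, from 0, 1 scale per gene) at the brightest probe set of each of the 10 genes, for the 3 BPH and the 3 BPL arrays (points), with the strain mean and SD (bar and whiskers; the lower whisker of Rgs4 in BPH is cut at 0). Rgs2 is separated most clearly, with BPH arrays from 27121 to 33451 and BPL arrays from 9883 to 13610.

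Over the 18 alternatives tried, the log2 difference of Rgs2 ran from 1.16 to 1.39 and was called in 15. The call was lost in 3, which concern the fluidics station and the filter. A term for the station in the model gave 1.28. Station 2 held only BPH arrays, so that value and every station-term value below compare BPH 3 alone with the BPL arrays. Station 1 by itself, where BPH 3 is the single BPH array beside the 3 BPL arrays, therefore also gave 1.28. Without the filter it was 1.30 with adjusted p = 0.0745. Without the 2 arrays with skeletal muscle transcripts, BPH 1 and BPL 2, it was 1.23 (limma adjusted p = 0.00561), and without BPL 2 alone, the array brightest in brown fat markers, it was 1.16 (limma adjusted p = 0.00376). Of the 6 chromaffin markers tested, 6 had a positive difference (median 0.65), 4 at an unadjusted p under 0.05 and 1 called in limma. Of the 5 brown fat markers tested, 0 had a positive difference (median -1.47), with 4 at an unadjusted p under 0.05 and 1 called lower. Over all 5555 tested genes, 11.2% were higher and 8.1% lower at an unadjusted p under 0.05 in limma, and 2.43% were called in either direction. Fewer cells of a type and less RNA per cell cannot be told apart in whole glands.

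The promoters of Rgs2 and Gnb1, the members higher on every BPH array, are shown because protein kinase A acts on genes through the cyclic AMP response element, whose core reads TGACG on one strand of the DNA. Read on the opposite strand that core is CGTCA. The letters are the 250 bases before the annotated start from RefSeq on GRCm38.p6, 5′ to 3′ in the direction of the gene, with each core in capitals. They are those of the reference strain and not of BPH or BPL. The Rgs2 stretch is chr1:144004150-144004399 on the minus strand and the Gnb1 stretch is chr4:155491111-155491360 on the plus strand.
Rgs2: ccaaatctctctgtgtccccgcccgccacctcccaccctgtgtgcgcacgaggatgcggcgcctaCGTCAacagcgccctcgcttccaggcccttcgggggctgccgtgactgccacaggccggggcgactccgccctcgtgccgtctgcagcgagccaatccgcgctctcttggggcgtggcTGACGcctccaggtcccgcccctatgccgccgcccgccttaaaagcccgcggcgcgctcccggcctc
Gnb1: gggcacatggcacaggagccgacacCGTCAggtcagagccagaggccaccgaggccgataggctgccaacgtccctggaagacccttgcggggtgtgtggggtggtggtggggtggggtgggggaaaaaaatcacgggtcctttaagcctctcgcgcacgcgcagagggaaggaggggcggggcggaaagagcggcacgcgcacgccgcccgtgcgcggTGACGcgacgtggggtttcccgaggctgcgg

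In Rgs2 the core begins 185 and 67 bases before the start, and in Gnb1 225 and 31 bases before it. Searched on both strands, the core is present in 17.8% of all 32851 promoter windows of this length. All 10 genes had an annotated start, with 19 starts in all. The core was found at 10 of the 19 starts, which belong to 6 genes, Rgs2, Rgs4, Gnb1, Gnas, Prkaca and Prkar1a. Some windows of Gnas and some of Prkar1a overlap, so the 19 starts are not independent. The 17.8% is a share of single windows and not of genes, and Gnas has 4 starts and Prkar1a 6. The full palindrome TGACGTCA, which holds the core on both strands, is in 1.55% of windows and was found at 1 of the 6 starts of Prkar1a. A match describes the letters and not a bound site, and the genes with a core include Prkaca, at a log2 difference of -0.37, and Prkar1a, at 0.13.

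Of the other RGS genes of the set, Rgs16 did not pass the test and Rgs4 was too dim to enter it. Rgs16, which acts on Gi and Gq, had 1518, 1825 and 2172 on BPH arrays, against 1719, 2403 and 1550 on BPL arrays, at 94378_at. The values interleave, and the log2 difference was -0.03 (95% confidence interval -0.52 to 0.46, limma adjusted p = 0.953), which leaves room for a fold between 0.696 and 1.38. It turned to 0.23 under the station term and to 0.29 without BPH 1 and BPL 2. A second Rgs16 probe set, 161609_at, was filtered out as low, with 409.4 to 637.4 on BPH arrays and 541.8 to 569.6 on BPL arrays. Rgs4, a regulator best known from neurons, was filtered out at its single probe set, where 5 of the 6 arrays lay under the floor of 201.3, and no difference is given for it. Its intensities were 287.7, 22.5 and 49.2 on BPH arrays, against 31.5, 53.8 and 134.3 on BPL arrays.

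Gnb1 encodes a G protein beta subunit, the partner that alpha subunits share. At 97458_at it had 14226, 12072 and 12282 on BPH arrays, against 9449, 8969 and 9511 on BPL arrays. At 94854_g_at the values were 5206, 5143 and 5943 on BPH arrays, against 3178, 3326 and 4164 on BPL arrays. At 94853_at they were 3484, 3371 and 3484 on BPH arrays, against 2079, 2754 and 1906 on BPL arrays. The strains did not overlap at any of the 3 probe sets, of which 94853_at and 94854_g_at were designed from the same source sequence. The log2 differences were 0.46 (SE 0.11, limma adjusted p = 0.0746), 0.62 (SE 0.14, adjusted p = 0.0671) and 0.64 (SE 0.16, adjusted p = 0.0819). Their 95% confidence intervals ran from 0.20 to 0.72, from 0.29 to 0.95 and from 0.26 to 1.01. Without BPL 2 the third passed at 0.79 (limma adjusted p = 0.0304), and the second passed at 0.74 without BPL 3 (limma adjusted p = 0.0266). Within station 1 the differences were 0.40, 0.75 and 0.65, none called, where BPH 3 is the single BPH array and is assumed to vary as the BPL arrays do.

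**Figure D2:**
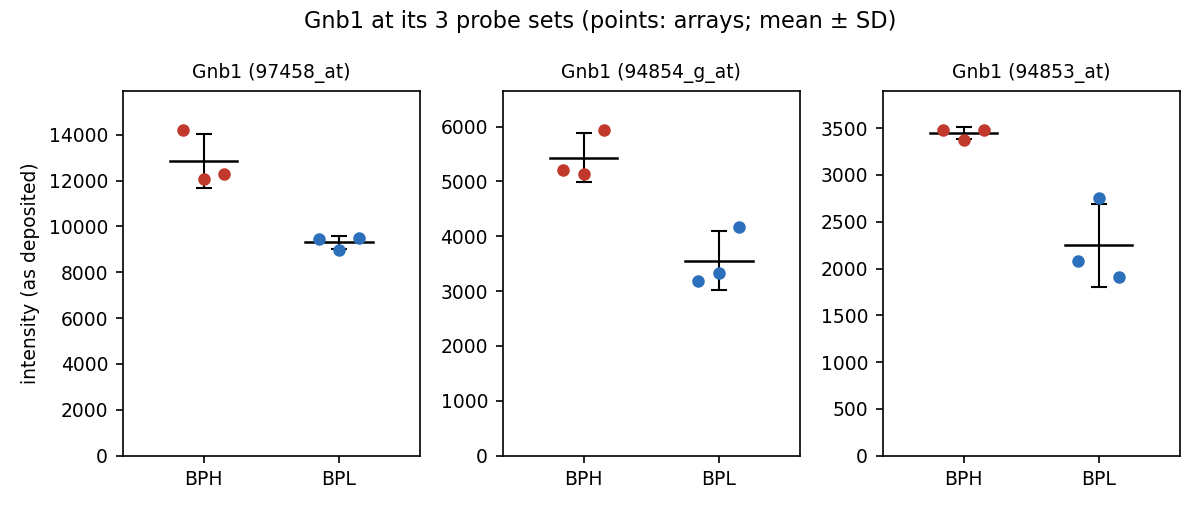
Intensity as deposited (vertical axes, linear, from 0, 1 scale per probe set) of Gnb1 at its 3 probe sets on the 3 BPH and the 3 BPL arrays (points), with mean and SD. Each probe set places all BPH arrays above all BPL arrays, from 12072 against 9511 at the nearest arrays of 97458_at to 3371 against 2754 at those of 94853_at.

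In all, 4 of the 14 tested probe sets had every BPH array above every BPL array, Rgs2 and the 3 of Gnb1, where 14.9% of all tested probe sets did. Another 2, of Gnao1 and Gnaq, had every BPH array below every BPL array, where 11.6% of all did. The remaining 8 overlapped. Since 3 of the 4 query 1 gene, these counts are not of independent genes.

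Gnao1 encodes the alpha subunit of Go, which is abundant in neurons and neuroendocrine cells. At its brightest probe set, 103843_at, it had 3198, 2888 and 2918 on BPH arrays, against 4267, 3714 and 3773 on BPL arrays. The strains did not overlap there, and the log2 difference was -0.38 (SE 0.13, 95% confidence interval -0.67 to -0.09, limma adjusted p = 0.152). The other probe sets of the gene were less clear. At 104414_at, BPH arrays ran from 1028 to 1409 and BPL arrays from 1071 to 1728, with a log2 difference of -0.15 (SE 0.24), which was -0.050 with the station term and turned to 0.0069 without BPL 1. At 161902_f_at, BPH arrays ran from 517.1 to 895.2 and BPL arrays from 856.9 to 1250.0, with a log2 difference of -0.51 (SE 0.30), which was -0.27 without BPH 3 and -0.997 with the station term, neither called. At 100388_at, which was filtered out, BPH arrays ran from 118.9 to 338.8 and BPL arrays from 347.7 to 497.2, without overlap. All 6 arrays lay under the floor at 103844_at.

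Gnas encodes the alpha subunit of Gs, which passes the corticotropin signal to adenylyl cyclase, and its locus yields several transcripts from alternative starts. Its probe set 93271_s_at had 132588, 85902 and 87806 on BPH arrays, against 111096, 139041 and 116385 on BPL arrays. BPH 1 stood among the BPL values while BPH 2 and BPH 3 lay below them, so the strains overlapped. The log2 difference was -0.28 (SE 0.19, 95% confidence interval -0.72 to 0.16, limma adjusted p = 0.461). Leaving out 1 array moved it between -0.49 (without BPH 1) and -0.17 (without BPH 2), with -0.19 without BPL 2. Quantile normalization gave -0.09 and the station term -0.47, and none of these was called. At 92672_at, BPH arrays ran from 672.8 to 860.2 and BPL arrays from 381.8 to 942.5, and the log2 difference of 0.18 (SE 0.39) was 0.014 with the station term and turned to -0.22 without BPL 3. The probe set 102082_at was under the floor on all arrays.

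Gnaq encodes the alpha subunit of Gq, through which angiotensin II drives aldosterone synthesis and on which Rgs2 acts. It had 840.4, 756.9 and 783.5 on BPH arrays, against 1015, 1008 and 1320 on BPL arrays. All BPH arrays lay below all BPL arrays, yet the log2 difference of -0.48 did not pass (SE 0.24, 95% confidence interval -1.02 to 0.06, limma adjusted p = 0.307).

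Both protein kinase A genes overlapped between the strains. Prkaca, the alpha catalytic subunit, had 8618, 6445 and 7939 on BPH arrays, against 8156, 11508 and 10090 on BPL arrays. BPH 1 lay above BPL 1, and the log2 difference was -0.37 (SE 0.16, 95% confidence interval -0.74 to 0.0046, limma adjusted p = 0.264). Prkar1a, the regulatory subunit whose loss in humans leads to cortisol excess, had 29477, 28496 and 25864 on BPH arrays, against 26857, 22489 and 27226 on BPL arrays. Its log2 difference was 0.13 (SE 0.13, 95% confidence interval -0.15 to 0.42, limma adjusted p = 0.591), an interval that spans folds from 0.901 to 1.34. The difference was 0.045 without BPL 2, 0.0057 without BPH 1 and BPL 2, and 0.024 with the station term. Adra2c, the alpha-2C adrenergic receptor through which mouse chromaffin cells limit their own catecholamine release, had 741.6, 643.7 and 861.4 on BPH arrays, against 1331, 821.0 and 650.6 on BPL arrays. The BPL arrays spread more widely than the strains differed (log2 difference -0.26, SE 0.33, limma adjusted p = 0.701), and without BPL 1 the difference was 0.025, while the station term gave -0.051.

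**Figure D3:**
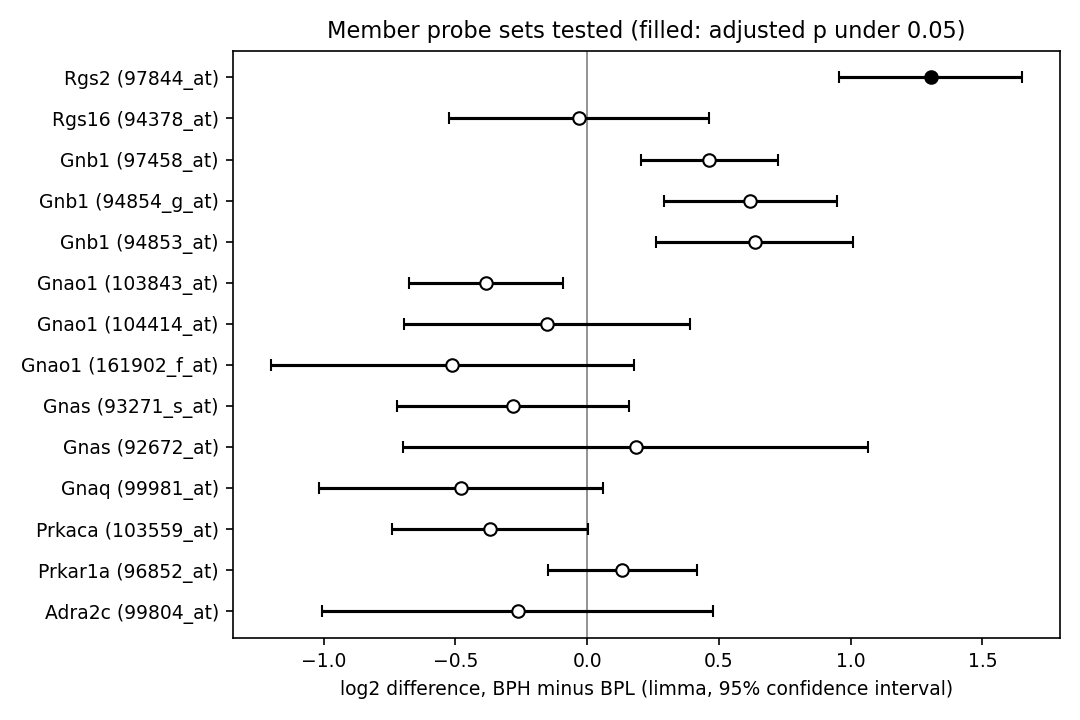
Log2 difference, BPH minus BPL, with its 95% confidence interval from limma (horizontal axis), for the 14 tested probe sets (rows). Rgs2 is the filled point at 1.30, the 3 Gnb1 probe sets sit at 0.46 to 0.64 with intervals above 0, and of the others only the interval of Gnao1 at 103843_at, -0.67 to -0.09, leaves out 0.

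**Figure D4:**
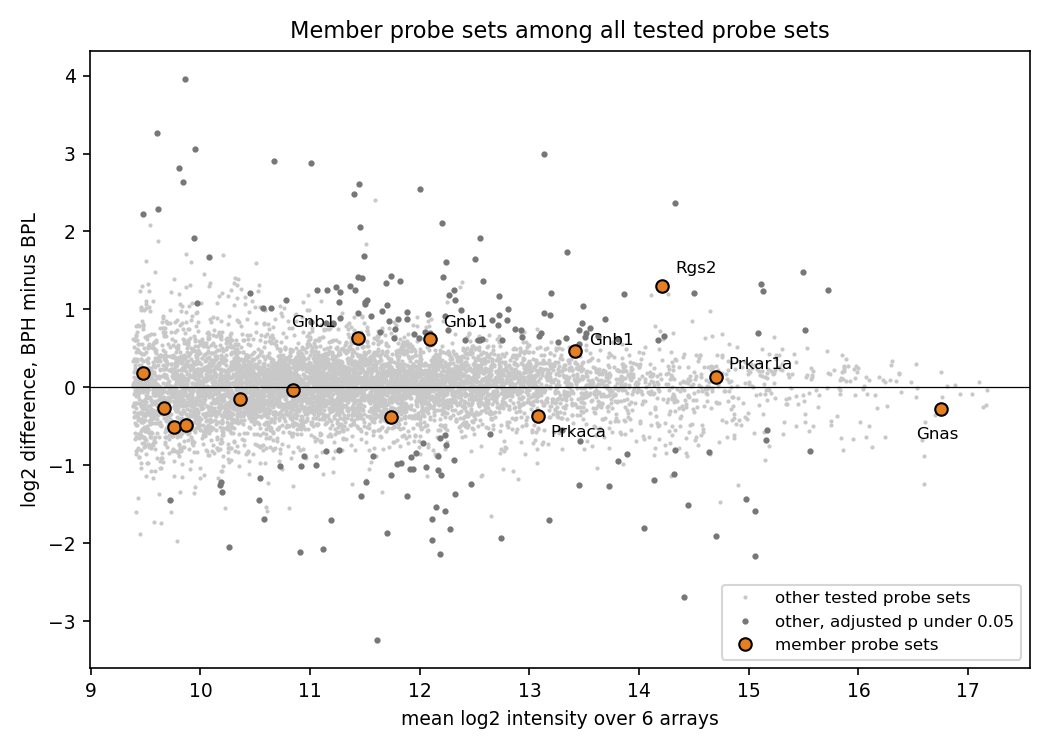
Log2 difference, BPH minus BPL (vertical axis), against mean log2 intensity over the 6 arrays (horizontal axis) for all 7293 tested probe sets, with the 14 member probe sets as large points and other probe sets at an adjusted p under 0.05 in dark grey. Rgs2 lies at a mean of 14.21 and a difference of 1.30, outside the main cloud, and the other 13 member points lie between -0.51 and 0.64.

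Other genes of the pathway were counted over 140 genes in 10 role lists, of which 85 had a probe set and 58 were tested, each by its brightest tested probe set. None of the 58 was called in limma, where 2.43% of all 5555 tested genes were. At an unadjusted p under 0.05 there were 6 higher and 5 lower, where 11.2% of all genes were higher and 8.1% lower. The median log2 difference of the 58 was 0.11, against 0.04 for all genes. In limma the count was 1 without BPH 1 and without BPH 1 and BPL 2 together, in both cases Crem, and 1 without BPL 3, which was Akap8. It was 0 under each of the other alternatives.

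Among the other RGS genes, 8 were tested and 1 had an unadjusted p under 0.05. Rgs7, which with the beta subunit Gnb5 acts on Go, had 1365, 1127 and 1524 on BPH arrays, against 2030, 2687 and 1429 on BPL arrays, a log2 difference of -0.58 (SE 0.25, limma adjusted p = 0.249). BPH 3 lay above BPL 3, so the strains overlapped. Rgs11, of the same subfamily, differed by 0.43 (SE 0.23). The median of the 8 was -0.06, beside 1.30 for Rgs2, a gap that was not tested.

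Of 8 other alpha subunits, 7 had a positive difference and none was called. The share of positive differences over all genes was not counted. Gna14, a member of the Gq class, had 1396, 1310 and 1409 on BPH arrays, against 828.2, 748.7 and 958.3 on BPL arrays. No BPL array reached a BPH array, and the log2 difference was 0.71 (SE 0.21, limma adjusted p = 0.115). Gna12, another alpha subunit gene, differed by 0.39 (SE 0.13, adjusted p = 0.141). The 8 other beta and gamma subunits had a median of 0.12, with 0 at an unadjusted p under 0.05. Gng10 at 0.30 and Gng12 at -0.18 had the smallest p-values among them.

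Receptors were thinly covered. Of 21 receptor genes 10 had a probe set and 4 were tested. Mc2r, the corticotropin receptor of the cortex, had 10916, 10156 and 10109 on BPH arrays, against 9149, 6801 and 9755 on BPL arrays, a log2 difference of 0.29 (SE 0.15, limma adjusted p = 0.321). Ednrb, an endothelin receptor, differed by -0.63 (SE 0.32, adjusted p = 0.323). Of 5 adenylyl cyclases, which make cyclic AMP, Adcy7 differed by 0.49 (SE 0.19, adjusted p = 0.205) and Adcy4 by -0.46 (SE 0.24, adjusted p = 0.325). The 3 phosphodiesterases tested, which break it down, included Pde7a at 0.45 (SE 0.27) and Pde8a at -0.33 (SE 0.22). Neither passed.

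Around protein kinase A, 8 other genes were tested, among them anchoring proteins that hold the kinase in place. Akap8, which binds the kinase in the nucleus, had 1785, 2066 and 2555 on BPH arrays, against 1109, 1042 and 1642 on BPL arrays. Its log2 difference was 0.77 (SE 0.23, limma adjusted p = 0.114) and 0.98 without BPL 3 (limma adjusted p = 0.0442), but its other tested probe sets gave 0.41 and -0.42. Akap2 differed by -0.63 (SE 0.24, adjusted p = 0.200), with all BPH arrays below all BPL arrays. The catalytic subunit gene Prkacb stood at 0.03 (SE 0.12).

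Downstream of Gq, Prkce, a protein kinase C isoform, had 683.2, 985.9 and 1011 on BPH arrays, against 1879, 1886 and 1415 on BPL arrays. No BPH array reached a BPL array, and the log2 difference of -0.96 missed the threshold (SE 0.24, limma adjusted p = 0.074). Prkcb, another isoform, differed by 0.55 (SE 0.27, adjusted p = 0.302), and Plcb1, a phospholipase C that Gq activates, by 0.02 (SE 0.11). Of 3 genes for receptor kinases and arrestins, which switch receptors off, Grk5 differed by 0.25 (SE 0.17) and Arrb1 by 0.14 (SE 0.24).

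The 4 tested genes of cyclic AMP-responsive transcription all had a positive difference. Positive differences were common in the pathway lists, with 37 of the 58 genes, and their share over all genes was not counted. The median of the 4 was 0.41, beside 0.04 over all genes. None of the 4 was called on all 6 arrays. Atf2 stood at 0.18 (SE 0.13) and Atf4 at 0.15 (SE 0.13). Crebbp, a coactivator that binds the phosphorylated factor CREB, had 3038, 2399 and 2297 on BPH arrays, against 1616, 1690 and 1609 on BPL arrays, a log2 difference of 0.64 (SE 0.16, limma adjusted p = 0.0775). Crem, whose locus also yields a repressor induced by cyclic AMP, had 2038, 4548 and 4518 on BPH arrays, against 2091, 1534 and 2368 on BPL arrays. BPH 1 stood among the BPL arrays, far below the other BPH arrays, and the log2 difference was 0.82 (SE 0.31, limma adjusted p = 0.201). A second Crem probe set gave 0.96 and was not called (limma adjusted p = 0.224). Without BPH 1 the first stood at 1.21 (limma adjusted p = 0.0469), and without BPH 1 and BPL 2 at 1.03 (limma adjusted p = 0.0275).

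**Figure D5:**
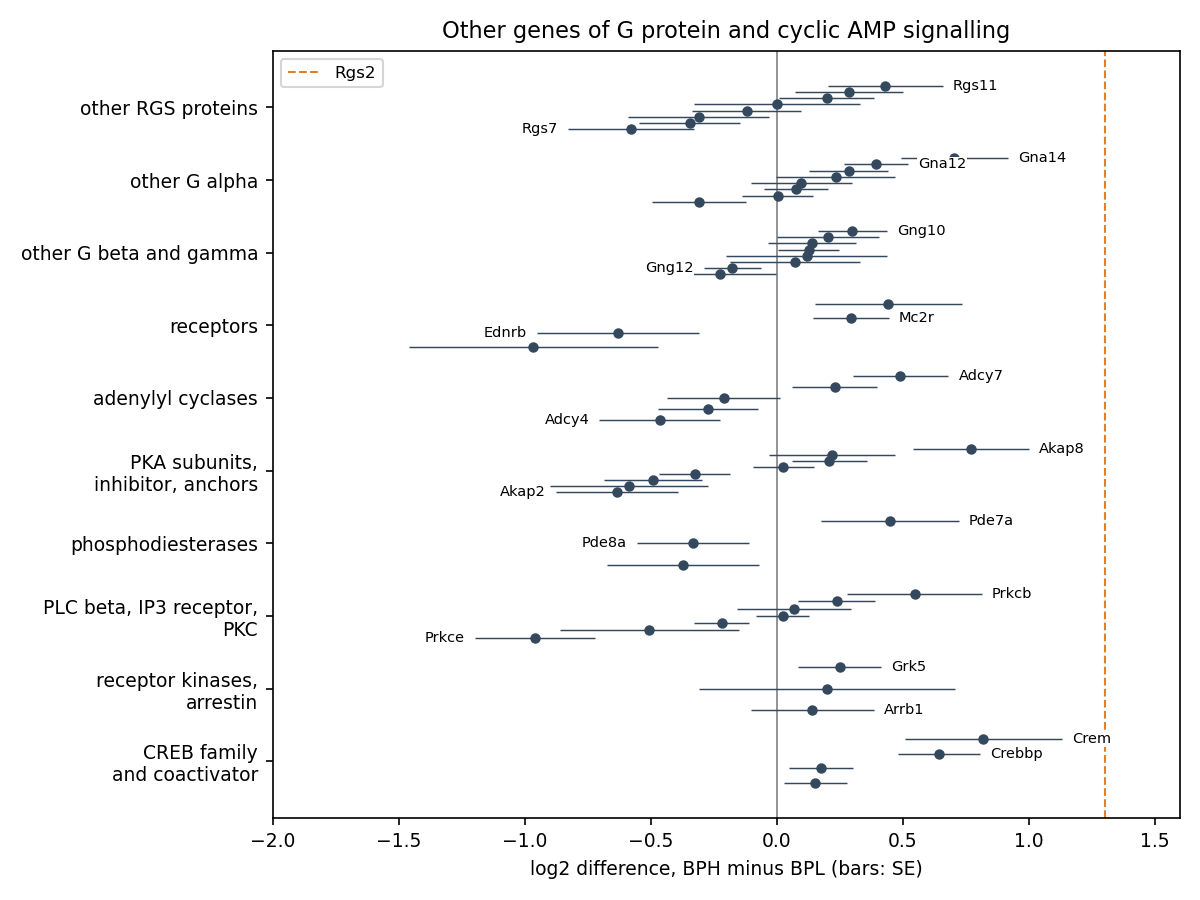
Log2 difference, BPH minus BPL, with its SE (horizontal axis), for 58 tested genes of G protein and cyclic AMP signalling in 10 role groups (rows), the 2 with the smallest p in each group named. None reaches the dashed line of Rgs2 at 1.30, and the points run from Pth1r at -0.97, which is not named in the plot, to Crem at 0.82.

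Immediate-early genes, which cells switch on within minutes of a stimulus, were called higher in BPH for 9 of 20 tested and lower for 0 in limma, beside the 2.43% of all genes called in either direction. At an unadjusted p under 0.05 in limma, 9 were higher and 1 was lower, beside 11.2% and 8.1% of all genes. This list was chosen with earlier results of these data known, so its counts are a description. At their brightest probe sets Gadd45b differed by 3.00, Nr4a1 by 2.36 and Junb by 1.34. A second probe set of Gadd45b gave 2.54 and one of Junb 2.90, both called (limma). The lowest BPH array of Rgs2, BPH 1, was also the lowest for 7 of the 9 genes, and its lowest BPL array, BPL 2, for 5 of the 9. BPH 1 and BPL 2 are also the 2 arrays with skeletal muscle transcripts. The share of all tested probe sets that were lowest on them was not counted, so whether the match is particular to these genes is not known. The part of the immediate-early genes, of the chromaffin cell share and of the brown fat share in the difference of Rgs2 was not tested.

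The genes most like Rgs2 over the 6 arrays, by Pearson's r of log2 intensity among all tested probe sets with 1 gene, were Pdcd6 (r = 0.999), Zranb2 (0.997), Rab5a (0.995), Iigp1 (0.995) and Tjp1 (0.994). These r values over 6 arrays in 2 strains are a description, since a ranking over so many probe sets yields high values. All 5 were higher on every BPH array, as a choice by r with Rgs2 favours. Their log2 differences were 0.50, 0.71, 0.46, 0.60 and 0.43, smaller than the 1.30 of Rgs2. Of the 5, only Zranb2 was called (limma adjusted p = 0.0312). Pdcd6 had 9947, 10659 and 10085 on BPH arrays, against 7435, 6764 and 7454 on BPL arrays, the same order of arrays within each strain as Rgs2.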

How the data were processed

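The authors deposited linear intensities, 1 for each probe set on each array, without detection calls. The summarising software was not given in the sources used here. Their 2% trimmed means were 2501.3 to 2501.5, so the authors' intensities had been scaled to 1 level and were not scaled again. Median intensities ran from 1003.4 to 1114.6, and the number of arrays limits the precision. The run files accompanying them gave 1 chip lot, the fluidics stations and a module number for each array.

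Gene names are those of the platform annotation, updated by gene number through a RefSeq table (GRCm38.p6), which held 10839 of the 10855 probe sets with 1 gene. Intensities below the table's 20th percentile (201.3) were raised to it and log2 was taken, which understates changes of dim genes. The 66 control probe sets, and those with a mean log2 value under that of the 40th percentile (668.1), were left out. BPH minus BPL was fitted over the remaining 7293 in limma 3.58.1 (R 4.3.3; lmFit, then eBayes using trend), two-sided. A call is a Benjamini-Hochberg adjusted p under 0.05. The script was tested on simulated data. A pathway gene stands by its brightest tested probe set. Named were all member probe sets, the called and in any case 2 genes with the smallest p of each role list, 3 immediate-early genes, and the 5 most like Rgs2. Plcb1, Prkacb, Gnb5, Pth1r, Atf2 and Atf4 were named after their values were seen. Members and lists were chosen with earlier results of these data known.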

Additional observations from a re-analysis of the deposited data

How the results depend on the processing

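Alternatives were quantile normalization, median scaling, a lower floor, an offset of 50, the low-signal filter dropped or raised to the 60th percentile, eBayes without trend or robust, a replicate block, a term for the fluidics station, station 1 by itself, leaving out each array in turn and, chosen after seeing the data, leaving out BPH 1 with BPL 2. The station term and station 1 by itself both compare BPH 3 with the BPL arrays, so their differences are equal. All arrays share 1 chip lot. The run files also give a module number, 3, 4 and 1 for BPH 1 to 3 and 1, 2 and 3 for BPL 1 to 3. It was not tried as a term. Rgs2 lost its call without the filter (1.30), with the station term and in station 1 by itself (1.28 in both). When 1 array was left out its log2 difference ran from 1.16 to 1.39. The number of member probe sets called was 0 without the filter, with the station term and in station 1 by itself, 2 with the filter at the 60th percentile, and 1 to 2 when 1 array was left out. The number of pathway genes called was 0 to 1 when 1 array was left out and 1 without BPH 1 and BPL 2. Of 229 values for the other 13 tested member probe sets, 218 kept direction and side of the threshold, 3, all of Gnb1, became called, and 8 changed sign without a call. Rgs16 turned to 0.23 with the station term and in station 1 by itself, to 0.10 without BPH 1, to 0.16 without BPL 2 and to 0.29 without BPH 1 and BPL 2. Leaving out 1 array, Rgs16 ran from -0.16 to 0.16, Gnao1 at 104414_at from -0.34 to 0.0069, Adra2c from -0.49 to 0.025 and Gnas at 92672_at from -0.22 to 0.43. The sign turned for Gnao1 and Adra2c without BPL 1 and for Gnas without BPL 3. The causes were not tested.

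The replicate numbers share no stated origin. Deviations of same-numbered arrays correlated with r of -0.22, -0.08 and 0.01, and those of differently numbered arrays with r from -0.085 to 0.156. Deviations from a mean of 3 arrays are tied to one another, so these values cannot show whether same-numbered arrays share an origin. With the replicate block Rgs2 stayed at 1.30 (limma adjusted p = 0.0149), and no other member probe set was called. Over all probe sets the block gave 124 calls against 184 without it, and the station term gave 18, station 1 by itself 7, no trend 83 and no filter 52. Leaving out 1 array gave 42 to 361.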
